A study of Mus musculus with 18 samples.

Results

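The transcripts described here are those of 31 genes of the tricarboxylic acid (TCA) cycle and of pyruvate dehydrogenase, the complex that feeds it, in mouse liver. They were taken by name from a list of the pathway. No threshold on their values entered the rule, but the list was chosen with earlier results of these data known. It holds 5 subunits of the pyruvate dehydrogenase complex, 3 of its kinases, 20 genes of cycle enzymes and close relatives, and 3 carriers that move cycle intermediates across the inner mitochondrial membrane. All 31 were among the 20512 genes of the deposited table, and all 31 passed the minimum level that left 13268 genes for testing.

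RNA-seq was run on livers of 18 male C57BL/6 mice, 6 in each of 3 groups, 1 library per mouse. The HFD+AC261066 group was fed a high-fat diet (HFD, 60% of kcal from fat) for 4 months and, for the last 2 months, was given AC261066, which activates the retinoic acid receptor RARβ2, in the drinking water (3 mg in 100 ml). The HFD group was fed the same diet without the drug, and the chow group a diet with 13% of kcal from fat. Mice entered the study at 6 to 7 weeks of age, had 0.2% DMSO in the drinking water in all 3 groups, were fasted overnight before the livers were taken, and belonged to an experiment that was run 2 times. The measured quantity was the authors' log2 value per gene and liver, in which a batch effect had already been removed. The values are not counts, the depth of single libraries is unknown, and a log2 value compares livers for 1 gene but not 1 gene with another. Differences in log2 value are also given as percentages on the linear scale. The transform that made the values is not known, and the percentages carry any shrinkage of differences in it.

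The TCA cycle oxidizes acetyl-CoA in the mitochondrial matrix and hands the electrons to the respiratory chain. Pyruvate dehydrogenase makes acetyl-CoA from pyruvate, and its kinases switch it off by phosphorylating the E1 alpha subunit, which saves pyruvate for glucose production in the fasted liver. In hepatocytes the cycle also gives citrate to the cytosol for fatty acid synthesis and malate for gluconeogenesis, so its enzymes and carriers stand where the oxidation and the making of fat meet.

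The livers were checked first. The summed level of 8 hepatocyte markers lay between 21.42 and 21.78 on the log2 scale in HFD+AC261066 livers, between 21.47 and 21.66 in HFD livers and between 21.55 and 21.87 in chow livers. Such a sum weighs the markers with the highest values most, and 4 of the 8 were called lower in HFD than in chow livers. The 4 skeletal muscle markers stood below the minimum, as did 3 of 4 adipocyte markers, and the adipocyte gene *Lep* was listed at 0. For every gene the libraries with replicate numbers 1 to 3 had the same mean as those with numbers 4 to 6, so these were taken as the sets that had been levelled, and the set was a term of the main fits. On the first principal component of all tested genes, 29.3% of the variance, 5 HFD+AC261066 livers lay between 3.53 and 7.22, the HFD livers between 8.40 and 21.2 and the chow livers between -21.5 and -10.9. The sixth HFD+AC261066 liver, replicate 3, lay at -12.5, among the chow livers. The counts of called and of non-overlapping genes among the 31 are therefore also given without that library where they differ.

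In HFD against chow, 9 of the 31 genes differed at an adjusted p under 0.1 (limma, adjusted over all 13268 genes), 7 higher and 2 lower in HFD livers. Higher were *Pdha1*, *Aco1*, *Idh1*, *Idh3g*, *Dhtkd1*, *Suclg2* and *Slc25a10*, and lower were *Fh1* and *Slc25a1*. This is 29.0% of the genes, beside 29.2% of all tested genes. By direction, 22.6% were higher, beside 14.2% of all genes, and 6.45% were lower, beside 15% of all genes. The median log2 difference over the 31 genes was 0.04, beside 0.01 over all genes. The differences ran both ways, 18 positive and 13 negative, from -0.40 to 0.43. With single libraries left out the count lay between 7 and 9, a range that describes the stability of the calls and is not compared with all genes. It was 1 in libraries 1 to 3 alone, where 922 of all genes were called, and 7 (6 higher, 1 lower) in libraries 4 to 6 alone, where 3061 were.

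In HFD+AC261066 against HFD, 4 of the 31 genes passed, *Pdk1*, *Dhtkd1*, *Suclg2* and *Sdha*, and all 4 were lower in HFD+AC261066 livers. This is 12.9% of the genes, beside 2.8% of all tested genes in either direction and 1.54% lower. None was higher, at an adjusted p under 0.1 or at an unadjusted p under 0.05 (limma), beside 1.27% of all genes called higher and 7.92% higher at an unadjusted p under 0.05. At an unadjusted p under 0.05, 9 genes were lower (29.0%, beside 7.79% of all genes). The median log2 difference of the 31 genes was -0.12, beside 5.19e-05 over all genes, and 26 of the 31 differences were negative, 83.9%, where 50.0% of all genes had one. The sizes were modest: the 31 differences ran from -0.38 to 0.07. Of the 31 genes, 12 had their lowest HFD+AC261066 value in replicate 3 of that group, and 6 had their highest there, which was not counted over all genes. The count of 4 depended on single livers. The number of all genes called also changed from fit to fit, so the counts without 1 liver cannot be set beside the 2.8%. It was 0 without HFD replicate 3, HFD replicate 5, HFD+AC261066 replicate 1 or HFD+AC261066 replicate 4. Without HFD+AC261066 replicate 3 all 4 calls were lost, and the count was 1 through *Mdh1* alone. It was also 1 without HFD replicate 2 (*Suclg2*) or HFD+AC261066 replicate 5 (*Sdha*), and 2 without HFD replicate 4 or chow replicate 6. Without HFD+AC261066 replicate 6 the calls of *Pdk1* and *Dhtkd1* were lost, and *Pdha1* and *Aco1* were called. The count was 0 in libraries 1 to 3 alone, where 23 of all genes were called, and 4 in libraries 4 to 6 alone, where 620 were. *Pdk1* and *Dhtkd1* were called there, *Suclg2* and *Sdha* were not, and the other 2 were *Mdh1* and *Slc25a11*.

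**Figure D1:**
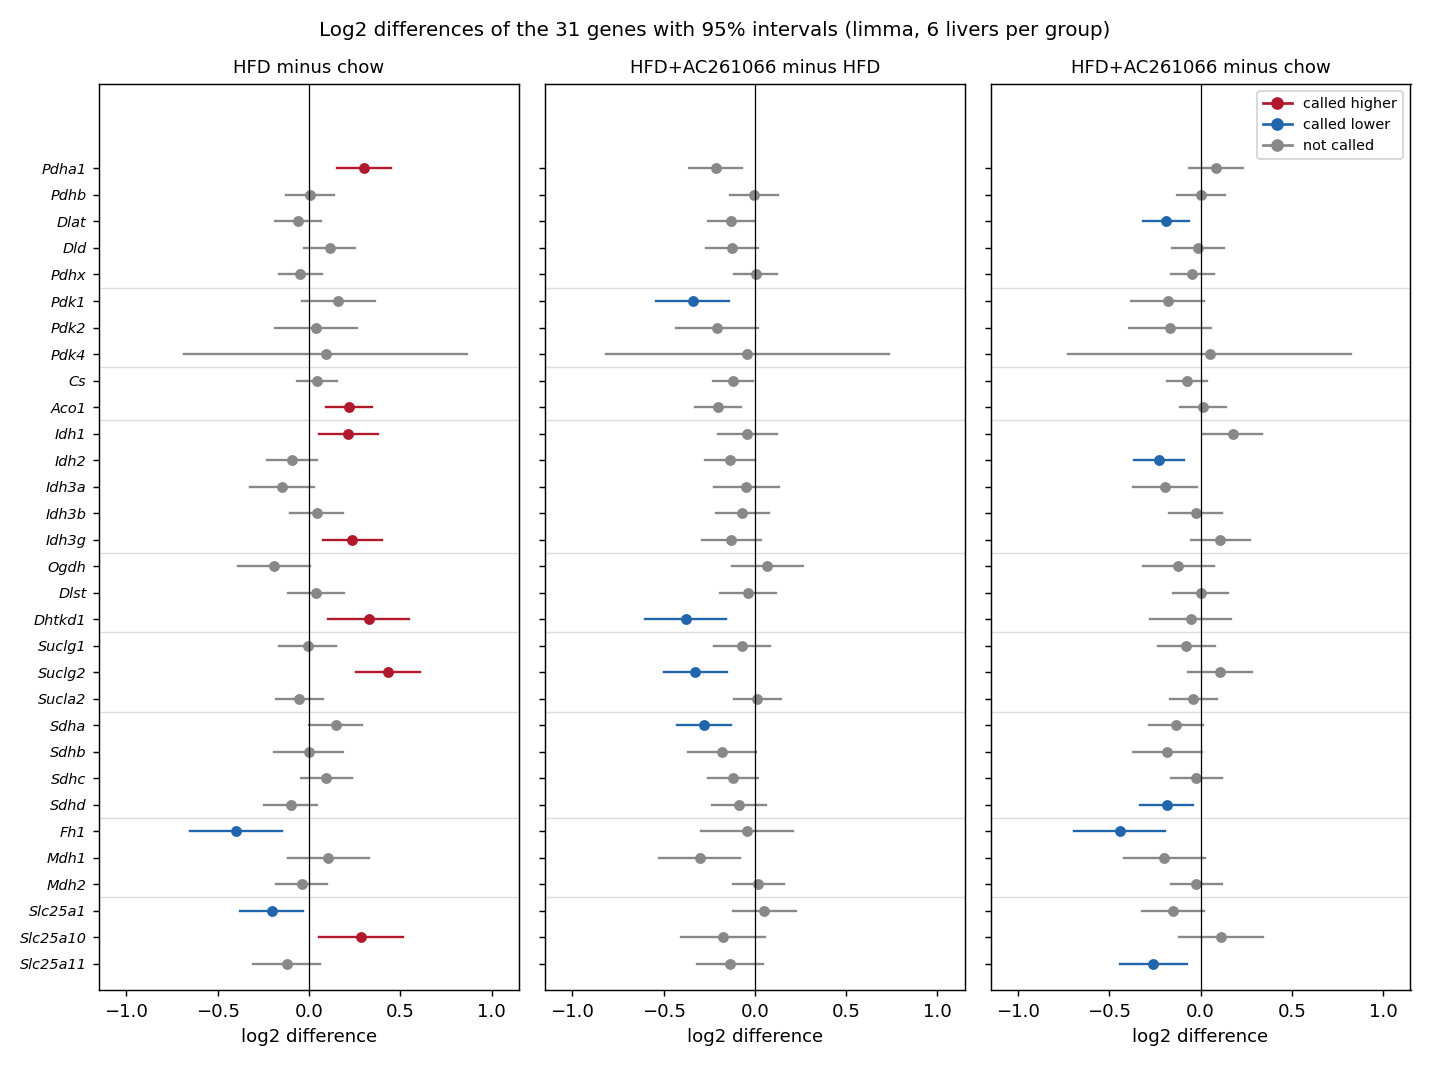
Log2 difference (x axis) of each of the 31 genes (y axis, in order of role) for HFD minus chow, HFD+AC261066 minus HFD and HFD+AC261066 minus chow, with 95% intervals from limma over 6 livers per group, in colour where the adjusted p was under 0.1. Calls to both sides of 0 are seen in the first panel (7 higher, 2 lower), whereas the 4 calls of the second panel and the 5 of the third are all lower.

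Both comparisons use the same HFD livers, so a value that is high in these by chance raises one difference and lowers the other, and the values are given side by side with no test of their relation. The HFD group had the highest median of the 3 groups for 19 of the 31 genes, the chow group for 11 and the HFD+AC261066 group for 1. The lowest median was that of the HFD+AC261066 group for 17 genes, the chow group for 9 and the HFD group for 5. The order of the medians was not counted over all tested genes, so these counts describe the 31 genes only. Against chow, HFD+AC261066 livers had 5 of the 31 genes lower (*Dlat*, *Idh2*, *Sdhd*, *Fh1* and *Slc25a11*) and none higher, 16.1% beside 16.7% of all tested genes; 8.45% of all genes were lower and 8.22% higher. At an unadjusted p under 0.05, 1 gene was higher in HFD+AC261066 than in chow livers (*Idh1*), beside 13.5% of all genes, and 6 were lower, beside 13.3%, 7 in all, beside 26.9% (limma). The count of 5 became 8 (1 higher, 7 lower) without HFD+AC261066 replicate 3, 3 without chow replicate 4, 5 or 6, and 2 without HFD+AC261066 replicate 4 or 5. The number of all genes called also changed between such fits, so these counts cannot be set beside the 16.7%.

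The promoters of the 4 genes called lower with the drug are shown because these genes moved the same way. Each is the 250 bases before the annotated gene start, read from RefSeq (GRCm38.p6) in the direction of transcription. They lie at chr2:71872974-71873223 on the plus strand (*Pdk1*), and on the minus strand at chr2:5942793-5943042 (*Dhtkd1*), chr6:95718847-95719096 (*Suclg2*) and chr13:74350241-74350490 (*Sdha*). Capitals mark matches, on either strand, to the GC box GGGCGG, the CCAAT box CCAAT and the motif of nuclear respiratory factor 1, a regulator of mitochondrial genes (GCGCA, any base, then GCGC).
Pdk1: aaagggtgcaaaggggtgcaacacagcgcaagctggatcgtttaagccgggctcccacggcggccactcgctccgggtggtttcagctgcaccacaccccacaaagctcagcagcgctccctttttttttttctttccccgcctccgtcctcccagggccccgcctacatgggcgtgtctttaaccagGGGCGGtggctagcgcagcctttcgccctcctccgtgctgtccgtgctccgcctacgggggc
Dhtkd1: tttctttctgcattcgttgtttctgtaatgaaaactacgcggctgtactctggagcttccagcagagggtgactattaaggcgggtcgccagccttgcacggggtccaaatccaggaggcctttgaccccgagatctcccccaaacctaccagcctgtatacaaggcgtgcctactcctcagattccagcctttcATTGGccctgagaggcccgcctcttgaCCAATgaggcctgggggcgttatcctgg
Suclg2: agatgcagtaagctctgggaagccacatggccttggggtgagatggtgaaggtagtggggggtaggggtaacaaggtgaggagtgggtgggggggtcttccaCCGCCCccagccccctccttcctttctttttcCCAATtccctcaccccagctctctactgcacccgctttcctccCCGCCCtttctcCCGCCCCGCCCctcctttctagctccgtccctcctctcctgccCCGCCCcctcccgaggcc
Sdha: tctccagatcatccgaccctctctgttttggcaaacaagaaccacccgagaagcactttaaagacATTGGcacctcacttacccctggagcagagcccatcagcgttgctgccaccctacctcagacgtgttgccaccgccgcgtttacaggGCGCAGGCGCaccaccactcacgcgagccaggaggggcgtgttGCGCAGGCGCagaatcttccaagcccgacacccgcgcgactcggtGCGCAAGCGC

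The 4 promoters shared no single match. The *Suclg2* promoter held 5 GC boxes, of which 2 overlap by a base, and a CCAAT box, the *Pdk1* promoter 1 GC box, and the *Dhtkd1* promoter 2 CCAAT boxes. The *Sdha* promoter held 3 nuclear respiratory factor 1 matches, at 98, 55 and 10 bases before the start, and a CCAAT box. Over the 29 of the 31 genes with a promoter in the RefSeq table, the nuclear respiratory factor 1 motif was found in 3 (*Sdha*, *Sdhd* and *Sucla2*), beside 3.87% of all 27025 promoters of this length, GGGCGG in 17, beside 33.0%, and CCAAT in 17, beside 34.5%. The nuclear receptor half-site AGGTCA was found in 3 (*Fh1*, *Sdhb* and *Sucla2*), beside 13.8%, and in none of the 4 promoters shown. The longer estrogen-related receptor motif TCAAGGTCA, which contains that half-site, was found in none of the 29, beside 0.366%. A match describes the letters of this window only.

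Pyruvate enters the cycle through the pyruvate dehydrogenase complex, whose E1 component is made of the alpha subunit *Pdha1* and the beta subunit *Pdhb*. *Pdha1* (chrX:156560141-156576345, minus strand, in mm9 as for every gene position that follows) had log2 values of 11.74, 11.79 and 11.95 in HFD livers (lowest, median, highest), against 11.29, 11.54 and 11.68 in chow livers. Every HFD liver lay above every chow liver. A gap between these groups, in either direction, was found for 4 of the 31 genes (*Pdha1*, *Aco1*, *Suclg2* and *Fh1*), beside 9.72% of all tested genes. *Pdha1* rose by 0.30 ± 0.071 (log2, SE) in HFD livers (23.3%, adjusted p = 0.00646, limma), with 0.19 in libraries 1 to 3 and 0.42 in libraries 4 to 6. In HFD+AC261066 livers *Pdha1* had values of 11.55, 11.57 and 11.76, a log2 difference from HFD of -0.22 ± 0.071 that missed the threshold (adjusted p = 0.141, limma). Exons of *Pdha1* overlap those of *Map3k15* on the other strand, and the library kit named in the methods does not keep strand. *Map3k15* had a mean log2 value of 5.86 and a log2 difference of 0.22 in HFD against chow (adjusted p = 0.135, limma); its part in the *Pdha1* value was not tested.

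The partners of *Pdha1* in the complex did not pass in that comparison. Log2 differences of HFD from chow were 0.00 for *Pdhb*, -0.06 for *Dlat* (the E2 acetyltransferase), 0.11 for *Dld* (the E3 dehydrogenase that this complex shares with other 2-oxoacid dehydrogenases) and -0.05 for *Pdhx* (the E3-binding protein). The 95% interval of *Pdhb*, from -0.13 to 0.14, does not reach the *Pdha1* difference. The *Pdhb* difference was -0.13 in libraries 1 to 3 and 0.13 in libraries 4 to 6, so the pooled value averages opposite signs. *Pdhb* has a near-identical copy at chr1:4761186-4762625 in mm9 (98.0% identity over 1409 of 1485 transcript bases), which could take or give reads. *Dlat* was the only gene of the complex called against chow in HFD+AC261066 livers, lower by a log2 difference of -0.19 (-12.4%, adjusted p = 0.0517, limma), a call lost without chow replicate 6, HFD+AC261066 replicate 4 or HFD+AC261066 replicate 5 (adjusted p up to 0.116) and after quantile normalization.

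Of the kinases that inactivate the complex, *Pdk1* was the only one called with the drug. *Pdk1* (chr2:71711281-71741915, plus strand) had log2 values of 10.68, 10.75 and 11.03 in HFD+AC261066 livers, against 10.96, 11.14 and 11.28 in HFD livers. The groups overlapped through 1 high HFD+AC261066 liver. *Pdk1* fell by 0.34 ± 0.095 (log2, SE) in HFD+AC261066 livers (-21.0%, adjusted p = 0.0843, limma), with -0.33 and -0.35 in the 2 sets. With single libraries left out the difference ran from -0.39 to -0.31, but the call held in only 7 of 18 such fits, those without chow replicates 1 to 5, HFD replicate 6 or HFD+AC261066 replicate 2, with adjusted p up to 0.180. In chow livers *Pdk1* had values of 10.59, 11.02 and 11.19, and HFD differed from chow by 0.16 (adjusted p = 0.24, limma), at 0.35 in the first set and -0.03 in the second.

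*Pdk2*, the most widely expressed kinase, was not called in any comparison. Its log2 values were 11.20, 11.54 and 11.96 in HFD+AC261066 livers, 11.67, 11.71 and 11.92 in HFD livers and 11.54, 11.75 and 11.86 in chow livers, with a log2 difference of -0.21 between HFD+AC261066 and HFD (adjusted p = 0.36, limma). The HFD livers lay close together, and the HFD+AC261066 livers spread to both sides of them.

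*Pdk4*, the kinase known for its rise in fasting, had the widest spread of the 31 genes within every group, with an SD of 0.74 in HFD+AC261066, 0.74 in HFD and 0.66 in chow livers, where the median SD of the 31 genes was 0.13, 0.10 and 0.14. Its log2 values were 7.87, 8.21 and 9.77 in HFD+AC261066 livers, 7.54, 8.43 and 9.66 in HFD livers and 7.73, 8.39 and 9.72 in chow livers, so each group had livers at both ends. The log2 difference of HFD+AC261066 from HFD was -0.04, with a 95% interval from -0.82 to 0.73, and that of HFD from chow 0.09, from -0.68 to 0.87. Changes of over 1.5 times in either direction lie within these intervals. Between the sets the difference of HFD+AC261066 from HFD was -0.72 in libraries 1 to 3 and 0.64 in libraries 4 to 6, which the test of the interaction did not separate (adjusted p = 0.336, limma).

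**Figure D2:**
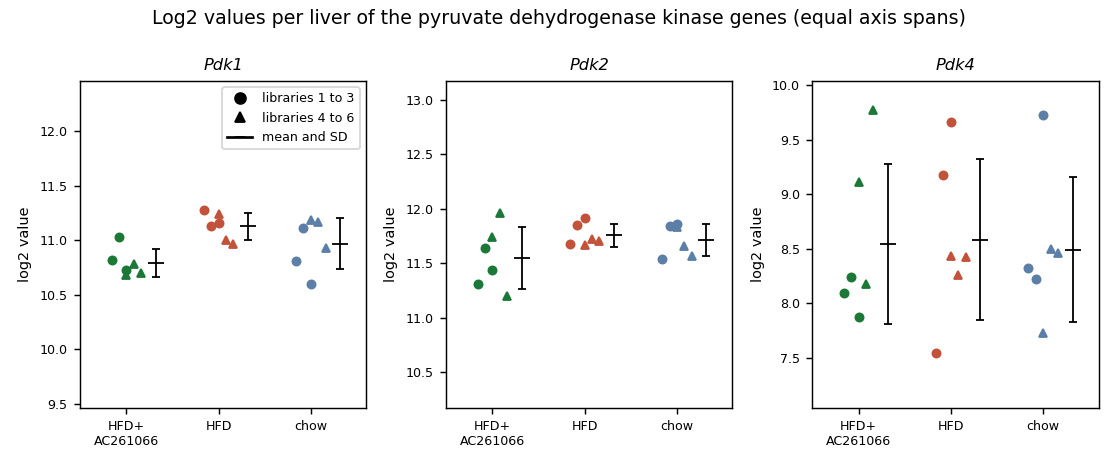
Log2 value per liver (y axes, of equal span) of *Pdk1*, *Pdk2* and *Pdk4* in HFD+AC261066, HFD and chow livers (x axis), with circles for libraries 1 to 3, triangles for libraries 4 to 6 and bars for the mean and SD of 6 livers. *Pdk1* lies lower in HFD+AC261066 (median 10.75) than in HFD livers (median 11.14), whereas *Pdk4* runs from 7.54 to 9.77 with no separation of the groups.

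Citrate synthase (*Cs*), which opens the cycle by joining acetyl-CoA to oxaloacetate, was not called in any comparison (log2 difference 0.04 for HFD against chow and -0.12, adjusted p = 0.285, for HFD+AC261066 against HFD, limma). *Aco1*, the cytosolic aconitase that turns into an iron regulatory protein when it loses its iron-sulfur cluster (chr4:40090114-40146042, plus strand), had log2 values of 12.73, 12.81 and 12.89 in HFD livers, against 12.50, 12.58 and 12.70 in chow livers, with no overlap. *Aco1* rose by 0.22 ± 0.060 (log2, SE) in HFD livers (16.2%, adjusted p = 0.0172, limma), with 0.22 and 0.21 in the 2 sets. HFD+AC261066 livers had 12.43, 12.60 and 12.79, and their log2 difference of -0.20 from HFD was just outside the threshold (adjusted p = 0.107, limma).

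The isocitrate dehydrogenases comprise 2 NADP-dependent enzymes and 1 NAD-dependent enzyme of 3 kinds of subunit. *Idh1*, the cytosolic NADP-dependent enzyme (chr1:65205190-65233053, minus strand), had log2 values of 13.18, 13.28 and 13.49 in HFD livers, against 12.88, 13.08 and 13.22 in chow livers, and the groups overlapped slightly. *Idh1* rose by 0.22 ± 0.076 (log2, SE) in HFD livers (16.1%, adjusted p = 0.0508, limma), a call lost without chow replicate 3 or HFD replicate 1 (adjusted p up to 0.118). With the drug the log2 difference from HFD was -0.04 (95% interval -0.20 to 0.12), and HFD+AC261066 livers had 13.09, 13.22 and 13.42. *Idh2*, the mitochondrial NADP-dependent enzyme, had values of 11.51, 11.62 and 11.73 in HFD+AC261066 livers, against 11.79, 11.83 and 11.90 in chow livers. It was the only one of the 31 genes with no overlap in that comparison, beside 3.69% of all genes; without HFD+AC261066 replicate 3 there were 2, *Idh2* and *Fh1*, beside 7.1%. *Idh2* fell by 0.23 ± 0.066 (log2, SE; -14.7%, adjusted p = 0.0359, limma). The call was lost in each set of libraries alone and after quantile normalization (adjusted p up to 0.266). HFD livers, at 11.57, 11.72 and 12.00, lay between and overlapped both, with neither difference called.

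The NAD-dependent enzyme of the cycle itself is built from *Idh3a*, which carries catalysis, and from *Idh3b* and *Idh3g*. *Idh3g* (chrX:71024302-71032236, minus strand) had log2 values of 10.66, 10.75 and 10.84 in HFD livers, against 10.35, 10.48 and 10.80 in chow livers, where 1 chow liver reached the HFD range. *Idh3g* rose by 0.24 ± 0.077 (log2, SE) in HFD livers (17.9%, adjusted p = 0.0359, limma). *Idh3a* and *Idh3b* were not called, at log2 differences of -0.15 and 0.04, and none of the 3 was called in HFD+AC261066 against HFD.

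Of the 2-oxoglutarate dehydrogenase subunits, *Ogdh* (E1) and *Dlst* (E2) were not called in any comparison. *Dhtkd1*, the E1 subunit of the related 2-oxoadipate dehydrogenase of lysine and tryptophan breakdown (chr2:5817161-5863838, minus strand), had the largest drug difference of the 31 genes. Its log2 values were 10.04, 10.32 and 10.48 in HFD+AC261066 livers, 10.49, 10.67 and 10.89 in HFD livers and 10.08, 10.27 and 10.80 in chow livers. Every HFD+AC261066 liver lay below every HFD liver, whereas 1 chow liver lay inside the HFD range and another at its lower edge. Counting gaps in either direction, HFD+AC261066 and HFD livers did not overlap for 2 of the 31 genes (*Dhtkd1* and *Sdha*), beside 1.74% of all genes (the same 2 without HFD+AC261066 replicate 3, beside 2.5%). *Dhtkd1* fell by 0.38 ± 0.11 (log2, SE) in HFD+AC261066 livers (-23.1%, adjusted p = 0.0843, limma; -0.31 and -0.45 in the 2 sets). Against chow, *Dhtkd1* rose by 0.33 ± 0.11 in HFD livers (25.4%, adjusted p = 0.0365, limma), and HFD+AC261066 livers differed from chow by -0.05 (95% interval -0.28 to 0.17). The drug call held in 8 of 18 fits with a library left out, those without chow replicates 1 to 5, HFD replicate 1, HFD replicate 6 or HFD+AC261066 replicate 2, with differences from -0.42 to -0.33 and adjusted p up to 0.183.

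Succinyl-CoA ligase, the step that makes a nucleoside triphosphate directly, pairs the alpha subunit *Suclg1* with a beta subunit that sets the nucleotide, *Suclg2* for GTP or *Sucla2* for ATP. *Suclg2* (chr6:95423006-95668792, minus strand) had the largest diet difference of the 31 genes. Its log2 values were 12.69, 12.82 and 13.18 in HFD+AC261066 livers, 13.12, 13.15 and 13.33 in HFD livers and 12.56, 12.80 and 12.91 in chow livers. HFD and chow livers did not overlap, and 1 HFD+AC261066 liver reached into the HFD range. *Suclg2* rose by 0.43 ± 0.083 (log2, SE) in HFD livers (34.9%, adjusted p = 0.00172, limma; 0.41 and 0.45 in the 2 sets) and was called in all 11 alternative settings and in all 18 fits with a library left out. It fell by 0.32 ± 0.083 in HFD+AC261066 against HFD livers (-20.2%, adjusted p = 0.0608, limma; -0.36 and -0.29 in the 2 sets), and HFD+AC261066 livers differed from chow by 0.11 (95% interval -0.07 to 0.28). This drug call was lost without HFD replicate 3, HFD replicate 5 or any of HFD+AC261066 replicates 1, 3, 4 and 5 (adjusted p up to 0.149). A copy of 2200 of the 3362 bases of the *Suclg2* transcript, 98.9% identical and annotated in part as the pseudogene *Gm15163*, lies at chrX:153449874-153452096 in mm9, so some reads may have been assigned to either. *Suclg1* and *Sucla2* were not called, with log2 differences of -0.01 and -0.05 in HFD against chow and -0.07 and 0.01 in HFD+AC261066 against HFD. For HFD against chow the 2 sets had opposite signs, -0.16 and 0.15 for *Suclg1* and -0.18 and 0.07 for *Sucla2*.

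**Figure D3:**
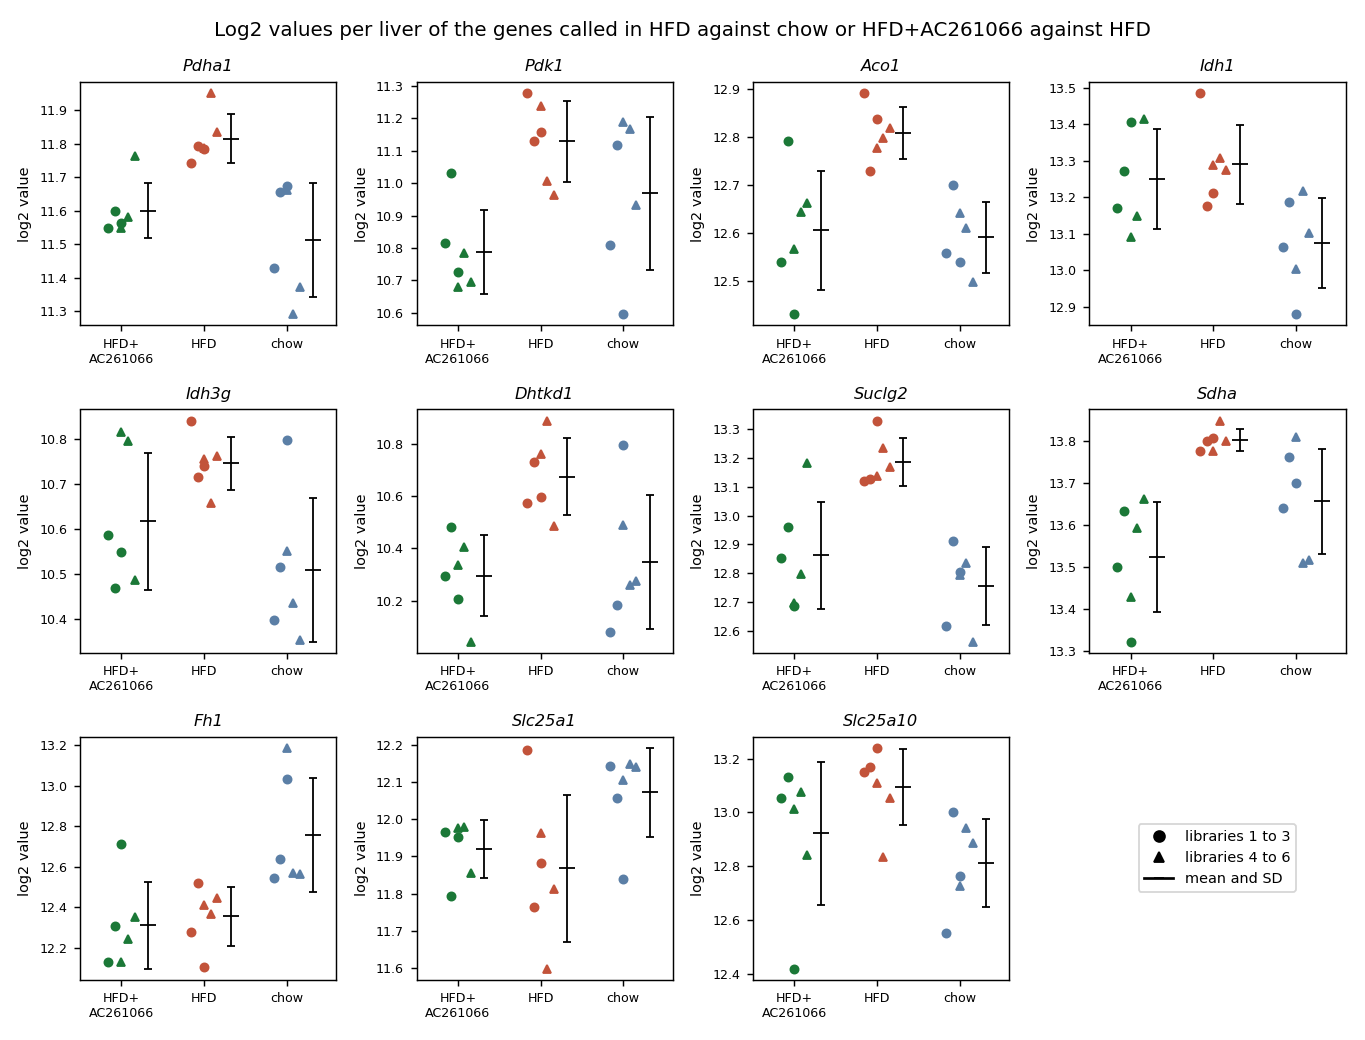
Log2 value per liver (y axes, each with its own span) of the 11 genes called in HFD against chow or HFD+AC261066 against HFD, in HFD+AC261066, HFD and chow livers (x axis), with circles for libraries 1 to 3, triangles for libraries 4 to 6 and bars for the mean and SD of 6 livers. The HFD livers of *Suclg2* (13.12 to 13.33) lie above all chow livers (12.56 to 12.91), and the HFD+AC261066 livers of *Sdha* (13.32 to 13.66) lie below all HFD livers (13.78 to 13.85).

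Succinate dehydrogenase is both a cycle enzyme and complex II of the respiratory chain. Its flavoprotein subunit *Sdha* (chr13:74459702-74487728, minus strand) had log2 values of 13.32, 13.55 and 13.66 in HFD+AC261066 livers, against 13.78, 13.80 and 13.85 in HFD livers, with no overlap. The HFD livers differed so little that their SD of 0.026 was the smallest of the 31 genes in that group. *Sdha* fell by 0.28 ± 0.070 (log2, SE) in HFD+AC261066 livers (-17.6%, adjusted p = 0.056, limma; -0.31 and -0.25 in the 2 sets). Chow livers had 13.51, 13.67 and 13.81, with a log2 difference of 0.15 for HFD against chow (adjusted p = 0.147, limma). The drug call was lost without HFD replicate 2, 3 or 5 or HFD+AC261066 replicate 1, 3 or 4 (adjusted p up to 0.137), with differences from -0.31 to -0.24. The iron-sulfur subunit *Sdhb* and the membrane anchors *Sdhc* and *Sdhd* were not called with the drug, at log2 differences of -0.18, -0.12 and -0.08. *Sdhd* was lower in HFD+AC261066 than in chow livers by a log2 difference of -0.19 (-12.1%, adjusted p = 0.0983, limma), a call that held in only 3 of 18 fits with a library left out, those without chow replicate 2 or HFD+AC261066 replicate 3 or 6 (adjusted p up to 0.22), and in 4 of 11 alternative settings.

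Fumarase (*Fh1*, chr1:177530505-177555766, minus strand), which hydrates fumarate to malate, was lower in both HFD-fed groups than in chow livers. Its log2 values were 12.13, 12.28 and 12.71 in HFD+AC261066 livers, 12.10, 12.39 and 12.52 in HFD livers and 12.55, 12.60 and 13.19 in chow livers. HFD and chow livers did not overlap, and 1 HFD+AC261066 liver, replicate 3, lay inside the chow range. *Fh1* fell by 0.40 ± 0.12 (log2, SE) in HFD livers (-24.2%, adjusted p = 0.0249, limma), and HFD+AC261066 livers differed from HFD by -0.04 (95% interval -0.29 to 0.21) and fell by 0.44 against chow (-26.5%, adjusted p = 0.0286, limma). Both calls against chow held in all 18 fits with a library left out. The malate dehydrogenases *Mdh1*, of the cytosol, and *Mdh2*, of the mitochondria, were not called. *Mdh1* had a log2 difference of -0.30 in HFD+AC261066 against HFD livers (unadjusted p = 0.0103, adjusted p = 0.167, limma), made of -0.07 in libraries 1 to 3 and -0.54 in libraries 4 to 6.

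The carriers differed among themselves. *Slc25a10*, the dicarboxylate carrier that exchanges malate or succinate for phosphate (chr11:120353154-120360501, plus strand), had log2 values of 12.84, 13.13 and 13.24 in HFD livers, against 12.55, 12.83 and 13.00 in chow livers, and rose by 0.28 ± 0.11 (log2, SE; 21.6%, adjusted p = 0.0741, limma). *Slc25a1*, the citrate carrier that exports citrate for fatty acid synthesis (chr16:17925304-17928312, minus strand), had 11.60, 11.85 and 12.19 in HFD livers, against 11.84, 12.12 and 12.15 in chow livers, and fell by 0.20 ± 0.082 (log2, SE; -13.2%, adjusted p = 0.0806, limma). The groups overlapped for both carriers, and the sets differed in size, with 0.42 and 0.15 for *Slc25a10* and -0.07 and -0.34 for *Slc25a1*. Both calls were weak: that of *Slc25a10* was lost without chow replicate 1, 3 or 4 or any of HFD replicates 1 to 4 (adjusted p up to 0.171), and that of *Slc25a1* without chow replicate 1, 2, 4, 5 or 6 or HFD replicate 2, 3, 5 or 6 (up to 0.196). *Slc25a11*, the 2-oxoglutarate carrier of the malate-aspartate shuttle, was lower in HFD+AC261066 than in chow livers by a log2 difference of -0.26 (-16.4%, adjusted p = 0.0652, limma), with -0.07 in libraries 1 to 3 and -0.45 in libraries 4 to 6. That call was lost without chow replicate 3, 4 or 5 or HFD+AC261066 replicate 4 or 5 (adjusted p up to 0.156), and it held in 6 of 11 alternative settings. None of the 3 carriers was called in HFD+AC261066 against HFD. *Slc25a10* and *Slc25a11* share exon sequence with genes on the other strand, *Gm11788* and *Rnf167*, and so do *Idh3b* (*Nop56*), *Dhtkd1* (*Gm13267*) and *Mdh1* (*Wdpcp*); reads from such pairs cannot be told apart without strand.

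Since 1 subunit of a complex was often called and its partners were not, the log2 ratio of partners was computed within each liver for all 25 pairs inside the pyruvate dehydrogenase complex, its kinases, the NAD-dependent isocitrate dehydrogenase, the succinyl-CoA ligases and succinate dehydrogenase. The pairs were defined after the genes' values had been seen, and the ratio of a called to an uncalled gene carries the difference of the called one, so the ratios are given as a description with no test. In HFD against chow the groups did not overlap in 5 of the 25 pairs: *Pdha1* to *Dlat*, *Idh3g* to *Idh3a*, *Suclg2* to *Sucla2*, *Suclg2* to *Suclg1*, and *Sdhc* to *Sdhd*, of which neither subunit was called in that comparison. Pairs of a complex share genes. Of all tested genes taken singly, 9.72% had no overlap in this comparison, but no such share was computed for other pairs of genes. For each of 4 complexes 1 pair with a subunit called with diet or drug is shown, which for 3 of them is the pair with the largest diet difference. The *Suclg2* to *Sucla2* log2 ratio was 1.40 ± 0.13 in HFD livers and 0.91 ± 0.10 in chow livers (SD, n = 6 each), with no overlap. *Idh3g* to *Idh3a* stood at 0.99 ± 0.17 in HFD livers and 0.60 ± 0.10 in chow livers (SD, n = 6 each), also with no overlap.

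*Pdha1* to *Pdhb* was 0.52 ± 0.11 in HFD livers and 0.22 ± 0.13 in chow livers (SD, n = 6 each), with a small overlap. *Sdha* to *Sdhd* was 1.41 ± 0.085 in HFD livers and 1.16 ± 0.13 in chow livers (SD, n = 6 each), again with overlap, and the diet differences of the ratios of *Sdha* to *Sdhb* and to *Sdhc* were smaller, at 0.15 and 0.05.

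In HFD+AC261066 against HFD, the groups overlapped in all 25 pairs. *Suclg2* to *Sucla2* was 1.06 ± 0.17 in HFD+AC261066 livers and 1.40 ± 0.13 in HFD livers (SD, n = 6 each). *Pdha1* to *Pdhb* was 0.31 ± 0.083 in HFD+AC261066 livers and 0.52 ± 0.11 in HFD livers (SD, n = 6 each). For *Sdha* to *Sdhd* the values were 1.21 ± 0.22 in HFD+AC261066 livers and 1.41 ± 0.085 in HFD livers (SD, n = 6 each), and for *Idh3g* to *Idh3a* 0.90 ± 0.30 in HFD+AC261066 livers and 0.99 ± 0.17 in HFD livers (SD, n = 6 each). The drug difference in the *Sdha* to *Sdhd* ratio was -0.37 in libraries 1 to 3 and -0.02 in libraries 4 to 6, and that in the *Idh3g* to *Idh3a* ratio changed sign, at -0.31 and 0.14.

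**Figure D4:**
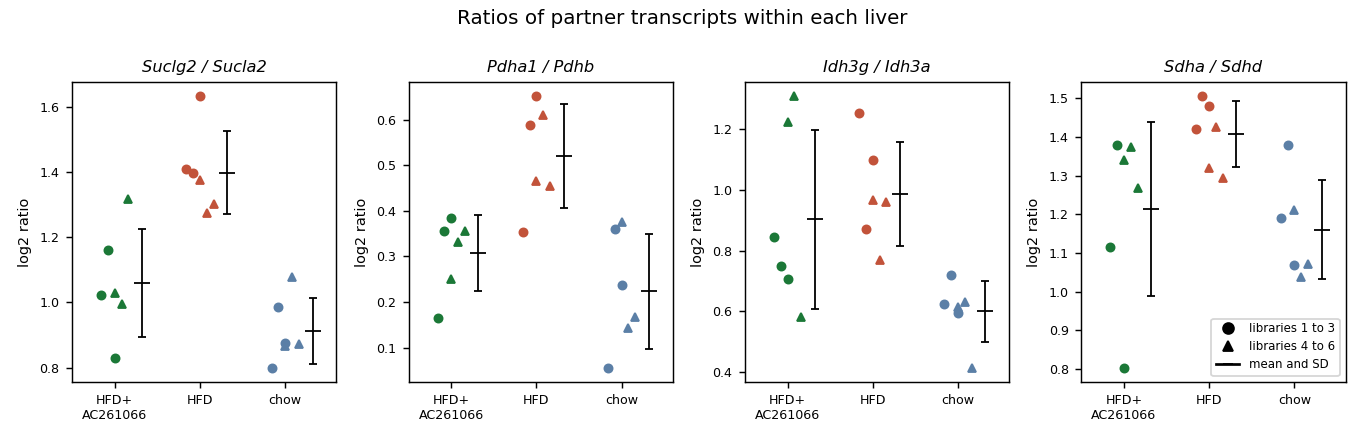
Log2 ratio per liver (y axes, each with its own span) of *Suclg2* to *Sucla2*, *Pdha1* to *Pdhb*, *Idh3g* to *Idh3a* and *Sdha* to *Sdhd* in HFD+AC261066, HFD and chow livers (x axis), with circles for libraries 1 to 3, triangles for libraries 4 to 6 and bars for the mean and SD of 6 livers. The HFD group has the highest mean in each panel, and the *Suclg2* to *Sucla2* ratios of HFD livers (1.27 to 1.63) lie above those of all chow livers (0.80 to 1.08).

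The calls were made over both sets of libraries together, which favours equal signs in the 2 sets among called genes. All 9 genes called in HFD against chow and all 4 called in HFD+AC261066 against HFD had the same sign in libraries 1 to 3 and in libraries 4 to 6. Of the 9, only *Suclg2* was called in libraries 1 to 3 alone, and *Idh1*, *Fh1* and *Slc25a10* were not called in libraries 4 to 6 alone. An interaction of group and set was called for none of the 31 genes in either comparison (beside 0.0603% and 0.497% of all genes); at an unadjusted p under 0.05 there were 6 in HFD against chow, beside 10.9% of all genes, and 4 in HFD+AC261066 against HFD, beside 15.5% (limma). Over all 31 genes the signs of the 2 sets were equal for 21 in HFD against chow, beside 68.6% of all genes, and for 18 in HFD+AC261066 against HFD, beside 50.5%.

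**Figure D5:**
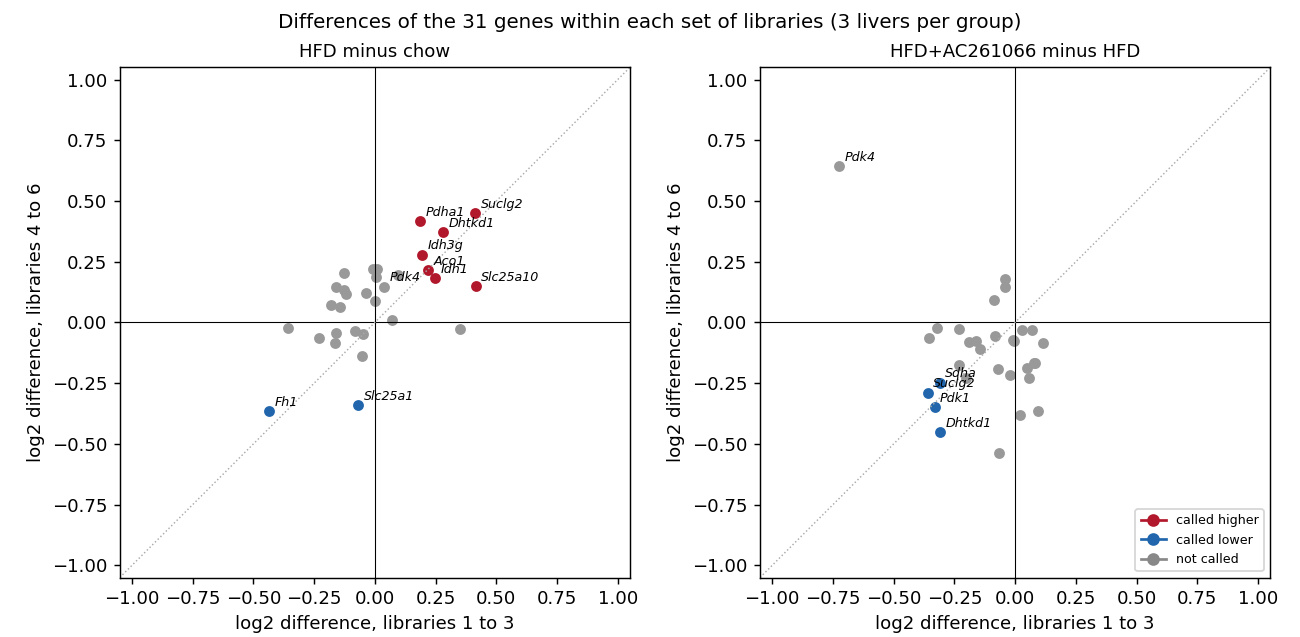
Log2 difference of each of the 31 genes in libraries 1 to 3 (x axis) and in libraries 4 to 6 (y axis), with 3 livers per group in each, for HFD minus chow and for HFD+AC261066 minus HFD, in colour where called over all livers. The 4 genes called with the drug lie below 0 on both axes, whereas *Pdk4* lies at -0.72 in libraries 1 to 3 and at 0.64 in libraries 4 to 6.

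Other genes of the pathway were taken from a list of 30, of which 28 were tested: the remaining kinase, the phosphatases of pyruvate dehydrogenase, pyruvate import and carboxylation, lipoylation, assembly of succinate dehydrogenase, the malate-aspartate shuttle, and enzymes that use citrate, malate or oxaloacetate, among others. In HFD against chow, 3 were higher (*Mpc1* and *D2hgdh* among them) and 4 lower (*Got1*, *Pck1*, *Slc25a22* and *Lipt2*), 25% beside the 29.2% of all genes. In HFD+AC261066 against HFD none of the 28 was called, beside 2.8% of all genes, and 5 of the 28 had an unadjusted p under 0.05, beside 15.7% of all genes (limma); their median log2 difference was -0.03. Against chow, 1 was higher in HFD+AC261066 livers (*Mpc1*) and 5 were lower (*Got1*, *Pck1*, *Glud1* and *Acn9* among them), 6 of the 28 in all, beside 16.7% of all genes.

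The largest diet differences of the pathway lay outside the cycle proper. *Pck1*, the cytosolic phosphoenolpyruvate carboxykinase of gluconeogenesis, had log2 values of 15.56, 15.67 and 16.02 in HFD livers, against 16.40, 16.89 and 17.12 in chow livers, with no overlap, and fell by 1.10 ± 0.13 (log2, SE; -53.3%, adjusted p = 2.85e-05, limma). HFD+AC261066 livers had 15.86, 16.19 and 16.38, a log2 difference of 0.43 from HFD that missed the threshold (adjusted p = 0.111, limma). *Got1*, the cytosolic aspartate aminotransferase, had 11.62, 11.93 and 12.80 in HFD livers, against 12.54, 13.28 and 14.49 in chow livers, with some overlap, and fell by 1.35 ± 0.27 (-60.8%, adjusted p = 0.00224, limma). Neither HFD-fed group differed from the other in *Got1* beyond its spread (log2 difference -0.13, adjusted p = 0.86, limma).

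*Mpc1*, a subunit of the mitochondrial pyruvate carrier, had values of 12.26, 12.46 and 12.53 in HFD livers, against 11.98, 12.13 and 12.18 in chow livers, with no overlap, and rose by 0.34 ± 0.059 (26.4%, adjusted p = 0.000842, limma). Its partner *Mpc2* was not called (log2 difference -0.14, adjusted p = 0.126, limma). *Slc25a22*, a mitochondrial glutamate carrier, had 11.65, 11.85 and 12.22 in HFD livers, against 11.95, 12.32 and 12.90 in chow livers, with some overlap, and fell by 0.48 ± 0.15 (-28.1%, adjusted p = 0.0312, limma).

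In whole liver, fewer cells of a type and less RNA per cell cannot be told apart. Among cell type markers, 4 of 8 hepatocyte markers were lower in HFD than in chow livers and none was called between HFD+AC261066 and HFD, while 3 of 8 stellate cell and fibroblast markers were higher in HFD than in chow livers and 2 were called lower with the drug. In HFD+AC261066 against chow, 3 of the 8 hepatocyte markers were lower, and 3 of 8 Kupffer cell and macrophage markers and 3 of 7 lymphocyte markers were higher. Of all tested genes, 15% were lower and 14.2% higher in HFD than in chow livers. Between HFD+AC261066 and HFD 2.8% of all genes were called, 1.54% lower, and against chow 8.45% were lower and 8.22% higher in HFD+AC261066 livers. The summed level of these stellate cell markers ran from 12.32 to 12.78 in HFD+AC261066 livers, from 12.53 to 13.42 in HFD livers and from 12.23 to 13.06 in chow livers, and that of 8 Kupffer cell and macrophage markers, 2 of them higher in HFD than in chow livers, from 13.42 to 14.15 in HFD+AC261066 livers, from 13.42 to 13.83 in HFD livers and from 13.21 to 13.56 in chow livers. Their part in the differences of the 31 genes was not tested.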

How the data were processed

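Liver RNA of 18 mice was sequenced, 6 mice per group, as paired reads of 51 bases by the study's methods. The authors aligned the reads to mm9 with TopHat 2.0.11, counted them per gene with HTSeq 0.6.1, and used DESeq2 1.6.3 and, to remove a batch effect, removeBatchEffect of limma 3.22.7. From the submitters' processing notes, bcl2fastq 2.17 and cutadapt were used too. The deposited values are log2 values per gene and library, from -3.98 to 21.4, and which transform made them is not given in the sources used here. They are not counts, so the depth per library is unknown and only the spread between mice gives a precision. The labels name a DNA library kit and a culture of neural stem cells, which do not match the methods' RNA kit and liver.

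In 1 fit over all 3 groups, limma 3.58.1 (R 4.3.3, variance trend on) tested the 13268 genes whose mean log2 value reached 2. The set of libraries (1 to 3 or 4 to 6) was a term, since levelling had used up 1 degree of freedom (14 left, plus 4.88 prior). The threshold for a call was 0.1 after Benjamini-Hochberg adjustment. The fit was tested on simulated data with known changes, with and without the term.

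The members and lists were chosen with earlier results of these data known. Named genes were all 31 members and, of the other pathway genes, those called with the drug (none) and the 4 with the smallest p in HFD against chow (*Pck1*, *Mpc1*, *Got1* and *Slc25a22*); other called pathway genes and *Mpc2* were named after their values were seen, and some of the list's genes are not reported here by name. Marker lists of further cell types, of cholangiocytes, exocrine pancreas, erythroid cells, endothelial cells, lymphocytes, monocytes and neutrophils, had at most 3 genes called in a comparison. Coordinates are those of NCBIM37 (mm9). Near-identical copies, of at least 95% identity over at least 200 bases, were sought with minimap2 2.31; 29 of the 31 genes had none. Promoters are from RefSeq (GRCm38.p6). Alternatives were leaving out each library, a threshold of 0.05, fitting 2 groups only, dropping the variance trend, the minimum or the set term, using either set alone, blocking on the replicate number, and scaling by quantiles or to equal medians.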

Additional observations from a re-analysis of the deposited data

Results flagged for a closer look

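For 4 of 93 combinations of gene and group, 1 liver lay far from the other 5 of its group by Dixon's criterion, which chance alone meets in about 1 group in 20. In HFD+AC261066 livers, *Pdha1* was at 11.76 in replicate 6 (the others 11.55 to 11.6), *Pdhx* at 9.549 in replicate 3 (the others 9.705 to 9.79) and *Sucla2* at 11.67 in replicate 4 (the others 11.8 to 11.87). In chow livers, *Slc25a1* was at 11.84 in replicate 3 (the others 12.06 to 12.15).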

How the results depend on the processing

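Among the 31 genes, no called difference changed sign under any alternative; the other pathway genes were not rerun. In libraries 1 to 3 alone, 1 of the 31 genes (922 of all genes) was called in HFD against chow, 0 (23) in HFD+AC261066 against HFD and 0 (123) in HFD+AC261066 against chow. In libraries 4 to 6 alone, with as many livers, these counts were 7 (3061), 4 (620) and 5 (2857); the cause was not tested. In HFD+AC261066 against HFD, all genes called numbered 581 without the set term, where *Aco1* joined the calls of the main fit. At an adjusted p under 0.05, 172 of all genes and 0 of the 31 were called. With no minimum, 2 of the 31 were called (*Suclg2* and *Sdha*), a count given without that over all genes. In HFD+AC261066 against chow, 2 of the 31 were called after quantile normalization (1 higher, 1 lower; 1716 of all genes), 3 with only the 2 groups fitted (1634) and 2 at 0.05 (1239 of all genes). With single libraries left out, the 31 genes gave 7 to 9 calls in HFD against chow, 0 to 5 in HFD+AC261066 against HFD (125 to 683 of all genes) and 2 to 8 in HFD+AC261066 against chow (1387 to 2811 of all genes; the 8 came with HFD+AC261066 replicate 3 left out, the 2 with replicate 4 or 5 of that group). Ratios of partners, for which the alternatives were chosen after seeing the data, moved only between the sets: with the drug, *Idh3g* to *Idh3a* was -0.31 in libraries 1 to 3 and 0.14 in libraries 4 to 6, *Suclg2* to *Sucla2* -0.47 and -0.20, and *Sdha* to *Sdhd* -0.37 and -0.02.

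Replicate numbers did not pair the livers: 5 of 18 same-number pairs correlated over 0.1, and in 7 of 18 comparisons of a liver with the 3 livers of another group in its set its own number correlated best. With the replicate block, 9 of the 31 genes (3636 of all genes) were called in HFD against chow, 2 (292) in HFD+AC261066 against HFD, where the calls of *Suclg2* and *Sdha* were lost, and 3 (1863) in HFD+AC261066 against chow, where those of *Sdhd* and *Slc25a11* were lost.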
